A study of Mus musculus with 6 samples.

Results

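Described here are genes of the fibroblast growth factor (FGF) pathway: FGF ligands, intracellular FGFs, FGF-binding proteins, FGF receptors and their adaptors, and feedback genes. Grouped as feedback genes by symbol are Spry, Spred, Il17rd, Dusp4 to Dusp9, Etv1, Etv4, Etv5 and Egr. All genes were chosen by their symbols and not by their values, though with earlier results of these data known. Of the 15095 genes in the authors' deposited table, 46 matched. The symbols Egr2, Fgf2, Fgf6, Fgf16, Fgf21, Fgf22, Spry3 and the pseudogene Fgfr3-ps were not analysed here. The symbol patterns also took in Fgfr1op, a centrosomal protein gene, and Fgfr1op2, neither of which encodes a receptor.

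The study sequenced polyA RNA from mouse neuronal progenitor cells (NPCs), with 3 libraries for each genotype, wild type and Setd2-KO. Both genotypes came from the embryonic stem cell line HA36CB1, and the knockout was made with CRISPR. The Setd2-KO clone that gave the RNA is not named in the labels or the methods. The NPCs were cultured as aggregates for 4 days without and 4 days with 5 uM retinoic acid and collected at day 8. SETD2 is the methyltransferase that places H3K36me3 on the bodies of transcribed genes.

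Secreted FGFs bind receptor tyrosine kinases together with heparan sulfate, and the receptor passes the signal through the adaptor FRS2 to RAS and the kinase ERK. ERK signalling switches on transcription factors of the ETS and EGR families and also its own inhibitors, among them Sprouty and Spred proteins and phosphatases of the DUSP family. In the early nervous system FGFs keep caudal progenitors undifferentiated, act against retinoic acid, and pattern the midbrain, hindbrain and forebrain from local sources.

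Each gene has a log2 fold change, given here as Setd2-KO over wild type, and an average log2 CPM (read counts scaled to library size) over all 6 libraries. Its p-value and false discovery rate (FDR) come from the authors' edgeR test, glmTreat, which asks whether the absolute log2 fold change exceeds 1. A gene that misses the FDR threshold of 0.05 was therefore not shown to be unchanged. The table holds no value per library, so that no SD or depth can be given, and the p-values measure a spread between libraries that may be technical. For comparison between genes, levels are given as the average log2 CPM per kb of merged exons, with a median of 1.89 over all genes.

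Dusp8 was the member with the lowest log2 fold change and Fgf3 the one with the highest, and their promoters are shown for that reason. Each sequence has 300 bases, from 250 before to 50 after the RefSeq transcription start (GRCm38.p6), and is written in the direction of transcription. Capitals mark TGACGTCA, the cAMP response element (CRE), which is the same on both strands. The Dusp8 promoter lies at chr7:142095235-142095534 on the minus strand and the Fgf3 promoter at chr7:144838362-144838661 on the plus strand.
Dusp8 promoter: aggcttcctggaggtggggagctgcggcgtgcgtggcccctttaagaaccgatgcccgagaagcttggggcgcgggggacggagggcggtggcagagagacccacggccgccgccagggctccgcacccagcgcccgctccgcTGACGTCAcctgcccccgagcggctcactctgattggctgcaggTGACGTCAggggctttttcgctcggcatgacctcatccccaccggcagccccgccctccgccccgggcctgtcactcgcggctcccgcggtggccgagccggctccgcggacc
Fgf3 promoter: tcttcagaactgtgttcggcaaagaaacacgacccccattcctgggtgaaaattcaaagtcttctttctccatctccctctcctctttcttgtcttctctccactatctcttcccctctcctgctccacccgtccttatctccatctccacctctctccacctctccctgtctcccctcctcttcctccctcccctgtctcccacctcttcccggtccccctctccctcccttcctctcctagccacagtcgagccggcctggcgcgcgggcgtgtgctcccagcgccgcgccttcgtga
The Dusp8 promoter held 2 copies of the CRE, at bases 144 to 151 and 188 to 195 counted from its first printed base. Of 32851 RefSeq promoters of this length, 588 (1.79%) held the CRE and 13 (0.0396%) held at least 2 copies. Dusp8 was the only one of the 43 promoters of the 33 matched members with this motif. The Fgf3 promoter held none of the motifs searched (TGACGTCA, CCGGAAGT, GCGGGGGCG and GCGTGGGCG, on both strands). The GC content was 73.3% for Dusp8 and 59.3% for Fgf3. A match of letters is a description and not a binding site.

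Of the 46 FGF genes, 1 was lower in Setd2-KO NPCs at an FDR under 0.05, where 2.11% of all genes in the table were. None was higher (0 of 46), where 1.54% of all genes were. At an unadjusted p under 0.05 of the authors' edgeR test, 1 member was lower (Dusp8) and 1 higher (Fgf3), where 3.43% of all genes were lower and 2.54% higher. The median log2 fold change of the 46 genes was 0.01, and that of all 15095 genes was also 0.01. The log2 fold changes of 24 members were above 0 and those of 22 below 0, with a range from -1.12 to 1.34. The middle 50% of the members lay between -0.46 and 0.30, and that of all genes between -0.30 and 0.29. An absolute log2 fold change of at least 0.5 was found for 18 members (39.1%) and for 28.8% of all genes, and one of at least 1 for 3 members (6.52%) and 8.53% of all genes. The 3 members were Dusp8, Fgf3 and Fgf11.

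**Figure D1:**
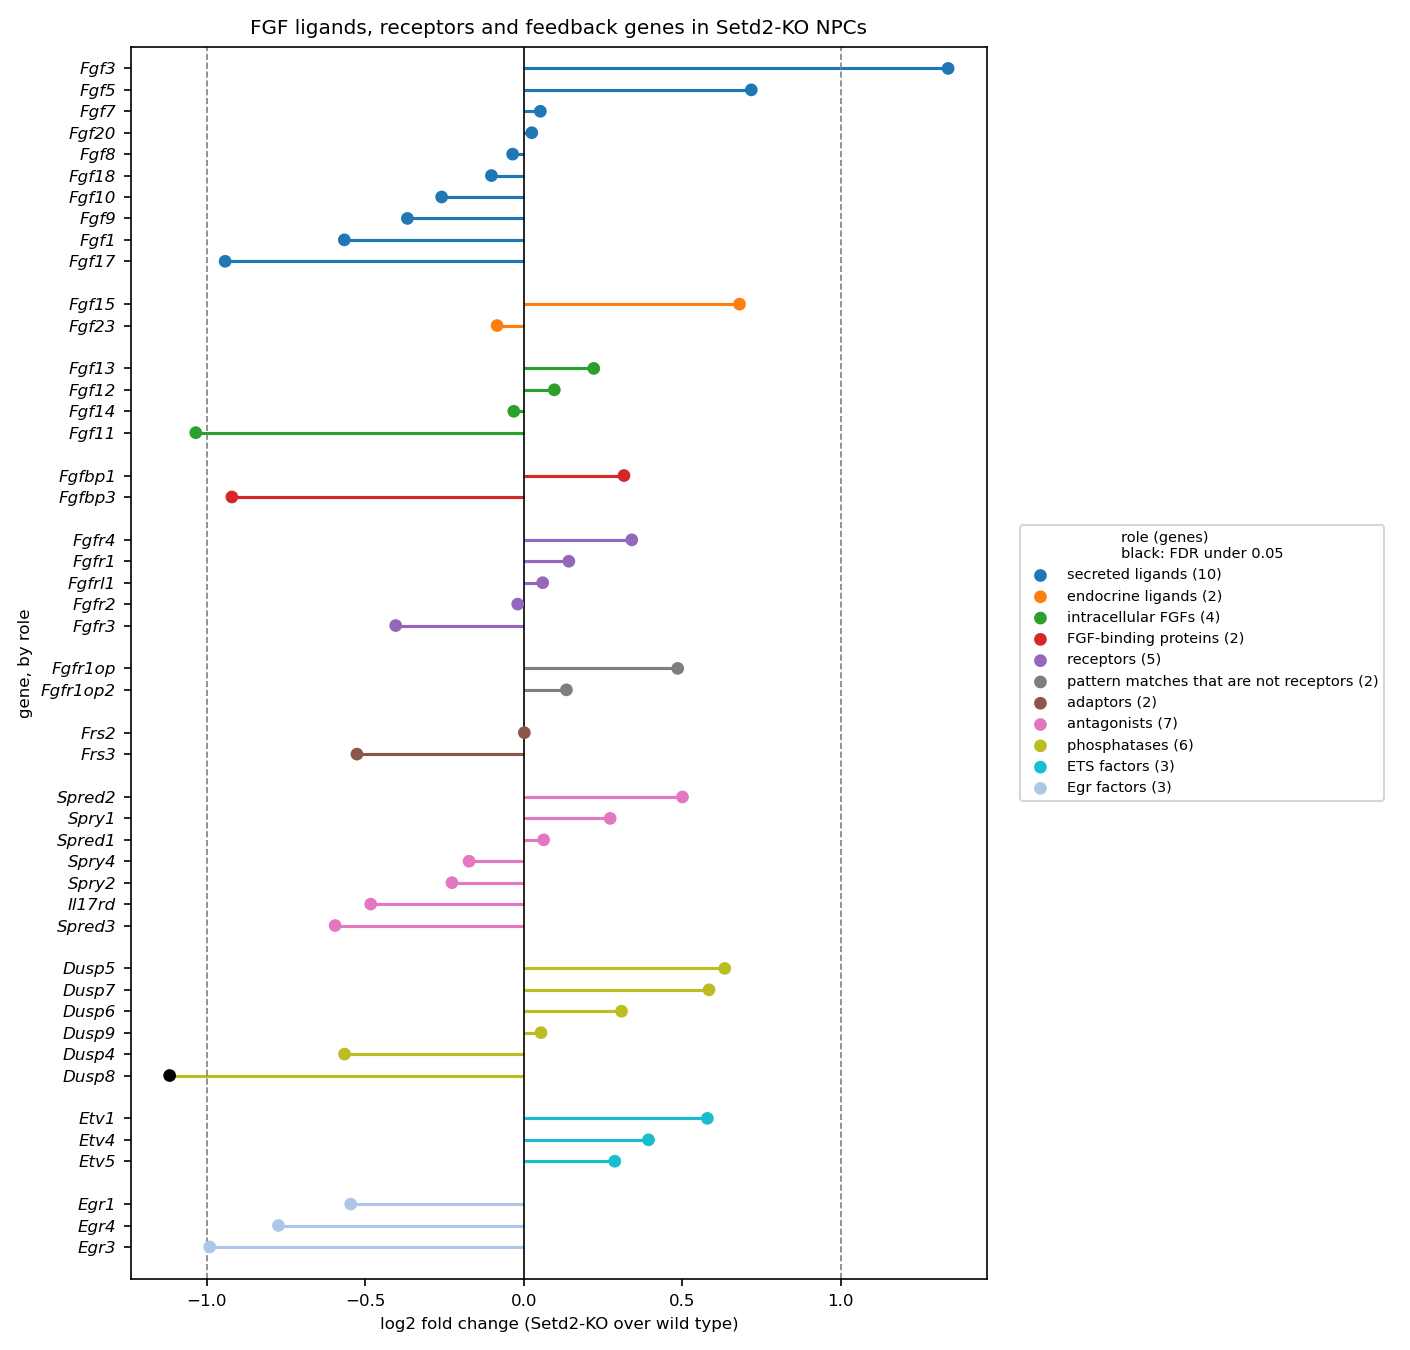
Log2 fold change (x axis, Setd2-KO over wild type) of each of the 46 FGF genes (y axis, grouped and coloured by role). Points are the values of the authors' deposited table with no error bar because none can be computed, dashed lines mark the tested log2 fold change of 1 in each direction, and Dusp8 at -1.12 is the only point in black (FDR under 0.05).

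The secreted ligands comprised 10 genes, of which 4 had a log2 fold change above 0 and 6 below it, with a median of -0.07. None of the 10 passed the test in either direction. Fgf3, a ligand of the hindbrain and inner ear, had a log2 fold change of 1.34 (2.53-fold; edgeR glmTreat FDR = 0.0892). Its average log2 CPM was 0.97, and among 894 genes within 0.5 of that value 89 (9.96%) were called, with an absolute log2 fold change of at least 1.30. Fgf3 thus lay above the smallest change called at its level without being called itself. Fgf5, a ligand of the primed epiblast, had a log2 fold change of 0.72 at an average log2 CPM of 1.14.

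At the other end stood Fgf17, a member of the Fgf8 subfamily expressed at the isthmus, with a log2 fold change of -0.94 (edgeR glmTreat FDR = 1). Fgf1, which binds all FGF receptors, followed with -0.57 at an average log2 CPM of -0.33. Fgf8 itself, the signal of the isthmus and the anterior neural ridge, had a log2 fold change of -0.04 but was scarce, with an average log2 CPM of -1.36. Fgf18 had the highest level of the secreted ligands per length (1.02 log2 CPM per kb) and a log2 fold change of -0.10. The remaining secreted ligands were Fgf9 (-0.37), Fgf10 (-0.26), Fgf20 (0.03) and Fgf7 (0.05). The levels of the other 9 secreted ligands ran from -3.41 to -0.25 log2 CPM per kb. Every secreted ligand, Fgf18 included, lay below the median of all genes (1.89).

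Among the endocrine ligands, Fgf15, the mouse counterpart of human FGF19 and a gene of the embryonic neural tube, had a log2 fold change of 0.68. Its level of 1.84 log2 CPM per kb was above that of every secreted ligand. Fgf15 lies 52.1 kb from Fgf3 on chromosome 7, and both values were above 0. Fgf23, the bone hormone of phosphate balance, was near the lower end of the table with an average log2 CPM of -2.24 and a log2 fold change of -0.08.

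The intracellular FGFs are not secreted and bind voltage-gated sodium channels in neurons. Fgf11 had a log2 fold change of -1.04 (2.05-fold lower; edgeR glmTreat FDR = 1), whereas Fgf12, Fgf13 and Fgf14 had 0.10, 0.22 and -0.03. Fgf13 had the highest level of the 4 genes, at 0.90 log2 CPM per kb. At the level of Fgf11, 75 of 1008 genes (7.44%) were called, the smallest of them with an absolute log2 fold change of 1.26. Early neuronal markers were mostly below 0 as well: 9 of 10 had a negative log2 fold change, with a median of -0.73 and levels from -1.07 to 8.06 log2 CPM per kb, and 1 was called lower (Elavl3, -1.28). None of the 10 was called higher by the edgeR test, where 1.54% of all genes were higher and 2.11% lower. At an unadjusted p under 0.05 of that test, 0 of the markers were higher and 2 lower (2.54% and 3.43% of all genes). Their part in the value of Fgf11 was not tested.

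FGF-binding proteins release FGFs from the matrix. Fgfbp3 had the highest level per length of all 46 genes, 6.07 log2 CPM per kb, and a log2 fold change of -0.92 (1.89-fold lower; edgeR glmTreat FDR = 1). Relative to the median of its chromosome its value was -0.55. Fgfbp1 was scarce, with an average log2 CPM of -0.94 and a log2 fold change of 0.32.

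**Figure D2:**
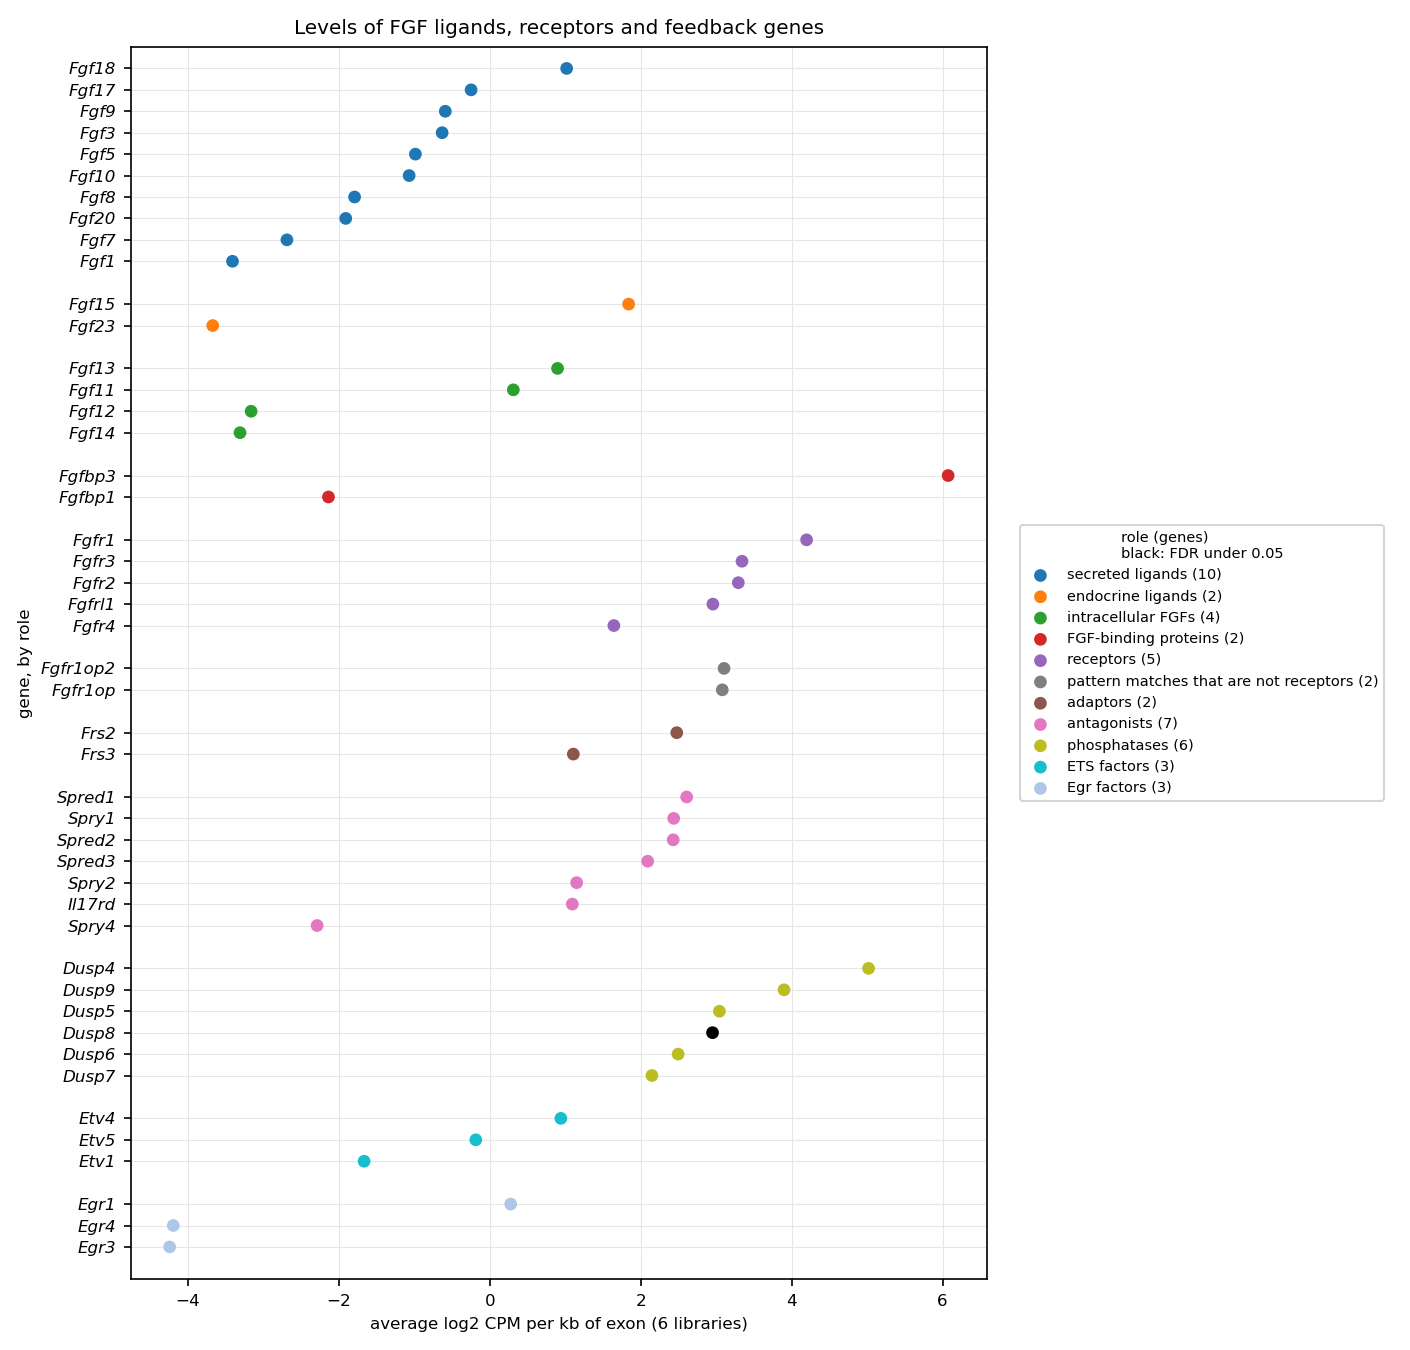
Level of each FGF gene (average log2 CPM per kb of merged exons over the 6 libraries), grouped by role, 1 point per gene. Fgfbp3 at 6.07 stands highest, the receptors lie between 1.64 and 4.20, and 9 of the 10 secreted ligands lie below 0.

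The 4 signalling receptors and Fgfrl1, a receptor without a kinase domain, were all measured, and none passed the test in either direction, also at an unadjusted p under 0.05 of the authors' edgeR test. Fgfr1 had the highest level (4.20 log2 CPM per kb) and a log2 fold change of 0.14. Fgfr3 and Fgfr2 followed closely at 3.34 and 3.29, with log2 fold changes of -0.40 and -0.02. Fgfr2 shares 314 exon bases with Ctbp2 on the same strand, and both have a row in the table, so that its value is uncertain. Fgfrl1 (level 2.96) had a log2 fold change of 0.06, and Fgfr4, the lowest of the 5 at 1.64, had 0.34. Whether neighbours in this order differ beyond the spread between libraries cannot be said from the table. Of the adaptors, which couple the receptor to RAS, Frs2 had a log2 fold change of 0.00 and Frs3 one of -0.53. Frs3 shares 577 exon bases with Tomm6os on the same strand, and both have a row in the table, so that its value is uncertain too. Fgfr1op and Fgfr1op2 had log2 fold changes of 0.49 and 0.13.

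The antagonists limit the signal between the receptor and ERK. Of the 7 genes, 3 had a log2 fold change above 0 and 4 below it, with a median of -0.17, and none passed the test, also at an unadjusted p under 0.05 of the authors' edgeR test. The 3 Sprouty genes had 0.27 (Spry1), -0.23 (Spry2) and -0.17 (Spry4). Spred proteins, which restrain signalling from RAS to ERK, had values of both signs: Spred2 had a log2 fold change of 0.50, Spred1 0.06 and Spred3 -0.60. Il17rd, a membrane protein also called SEF, had -0.48. Spred1 had the highest level of the antagonists, 2.61 log2 CPM per kb, but with the length of the canonical transcript Spry1 did (3.26, Spred1 2.90).

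Dusp8, a phosphatase that acts mainly on the stress kinases JNK and p38, was the only member called lower. It was included by its symbol, and its link to FGF signalling was not tested. Its log2 fold change was -1.12 (2.17-fold lower; edgeR glmTreat FDR = 0.0286) at an average log2 CPM of 5.98 and a level of 2.95 log2 CPM per kb. The call was lost at an FDR threshold of 0.01 and after Benjamini-Yekutieli adjustment, where 0 members were lower. Fewer cells of a type and less RNA per cell cannot be told apart in such bulk samples. Of 2446 genes within 0.5 of its average log2 CPM, 33 (1.35%) were called, and the smallest absolute log2 fold change among them was 1.12, which Dusp8 barely exceeded. Dusp8 therefore lay at the edge of the called genes of its level. Its exons overlap the antisense RNAs Gm32786 and Gm73912 by 66 and 154 bases. The early neuronal markers given above were also mostly below 0, and their part in the value of Dusp8 was not tested.

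The other phosphatases were not called. Dusp5, a nuclear phosphatase of ERK, had a log2 fold change of 0.63, and Dusp7 and Dusp6, which act on ERK in the cytoplasm, had 0.58 and 0.31. Dusp6 is a widely used readout of FGF signalling. Dusp9, a relative of Dusp6 and Dusp7, had 0.05, and Dusp4, a nuclear phosphatase with the highest level of the group (5.02 log2 CPM per kb), had -0.57. The median of the 6 phosphatases was 0.18.

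**Figure D3:**
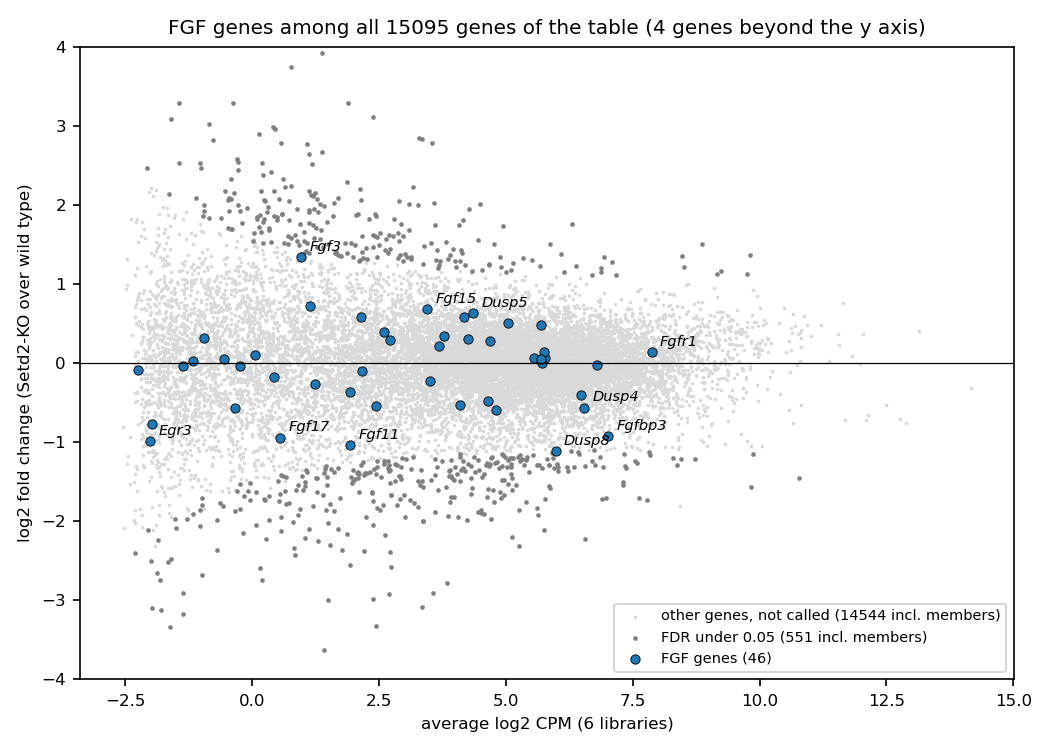
Log2 fold change (y axis, Setd2-KO over wild type) against average log2 CPM (x axis) of all genes in the authors' deposited table, with the 46 FGF genes as blue points and genes past the FDR threshold in dark grey. Dusp8 sits at the inner edge of the called genes at its level and Fgf3 beside called genes, and 4 genes lie beyond the y axis.

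The transcription factors that ERK induces had values of opposite sign. The ETS factors of the PEA3 group, which are classical FGF targets, all had log2 fold changes above 0 (3 of 3), at 0.58 for Etv1, 0.39 for Etv4 and 0.29 for Etv5. The immediate early Egr genes all had values below 0 (3 of 3), at -0.55 for Egr1, -0.77 for Egr4 and -0.99 for Egr3. None of the 6 genes passed the edgeR test, also at an unadjusted p under 0.05. Egr3 and Egr4 were scarce, with average log2 CPM of -2.01 and -1.97, and at the level of Egr3 the smallest absolute log2 fold change called was 1.97. Egr1 and Etv4 had the highest levels of their groups, 0.28 and 0.94 log2 CPM per kb.

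Position on the chromosome was compared because the median log2 fold change of chromosome 19 was -0.37 over 454 genes, against -0.08 to 0.08 on the other chromosomes. Fgf8, Fgfbp3 and Dusp5 lie on chromosome 19. The nearest genes (up to 20 on each side) had a median of -0.48 around Fgf8, -0.12 around Fgfbp3 and -0.32 around Dusp5. Relative to these, the log2 fold change was 0.44 for Fgf8, -0.81 for Fgfbp3 and 0.95 for Dusp5, and relative to the chromosome median it was -0.55 for Fgfbp3 and 1.01 for Dusp5. Dusp5 thus stood further from its neighbours than from 0, and the part of the chromosome in these values was not tested. Dusp8 and Fgf3 lie 2742 kb apart on chromosome 7 with changes of opposite sign, and the medians of their nearest genes were -0.04 and -0.01. On GRCm39, Dusp8 spans chr7:141633226-141649580 and Fgf3 chr7:144391599-144398173.

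**Figure D4:**
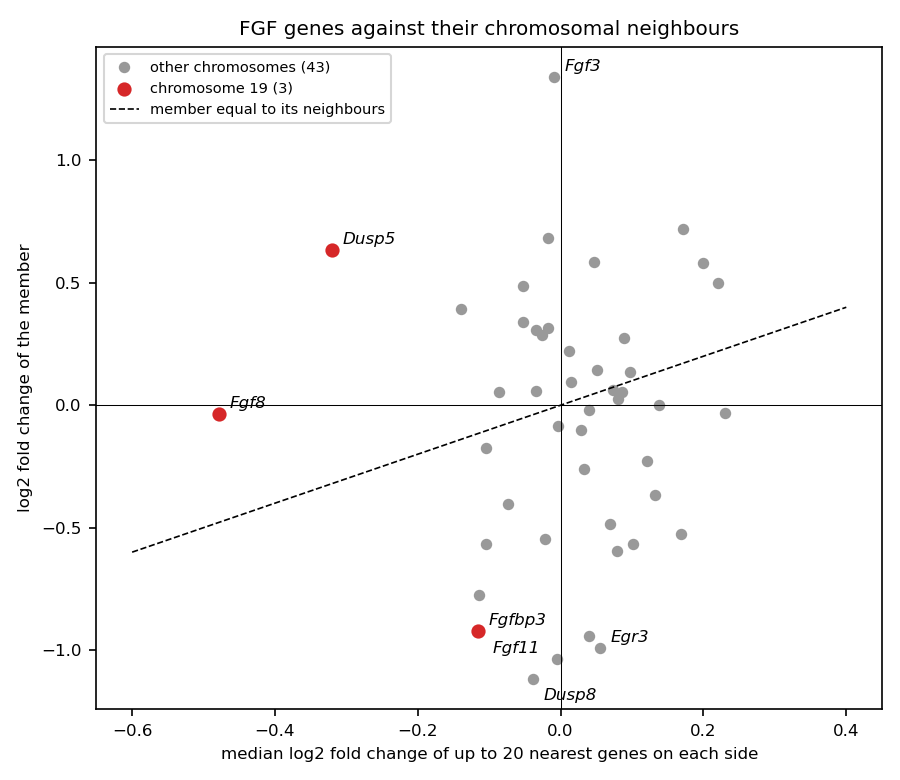
Log2 fold change of each FGF gene (y axis) against the median log2 fold change of up to 20 nearest genes on each side (x axis), 1 point per gene, with the 3 genes of chromosome 19 in red. The dashed line marks equal values, and Dusp5 and Fgf8 lie above it, at neighbour medians of -0.32 and -0.48.

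The kinases and adaptors that carry the signal onward were measured in full (38 of 38 listed genes). None was called higher or lower, where 1.54% of all genes were higher and 2.11% lower, and the median log2 fold change was -0.13. At an unadjusted p under 0.05 of the authors' edgeR test none was called either, where 2.54% of all genes were higher and 3.43% lower. Among the genes with the highest average log2 CPM were Pebp1 (0.34) and Plcg1, a phospholipase that the receptors activate (-0.25). Of the ERK-responsive early genes outside the family, 34 of 36 were measured and 0 passed the edgeR test in either direction, with a median of 0.01. At an unadjusted p under 0.05, 1 was higher (Phlda2, 1.40, FDR = 0.0565, named after its value was seen) and 0 were lower, where 2.54% of all genes were higher and 3.43% lower. Jund, Ccnd1 and Btg2 had log2 fold changes of -0.43, 0.02 and 0.00.

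Heparan sulfate, the sugar chain that FGFs need to engage their receptors, was represented by 37 of 40 listed genes with a median of -0.09. At an FDR under 0.05, 1 was higher and 2 lower, where 1.54% of all genes were higher and 2.11% lower. At an unadjusted p under 0.05 of the edgeR test, 1 was higher and 4 lower (2.54% and 3.43% of all genes). Hs3st6, a sulfotransferase that modifies the chain, rose (1.52, edgeR FDR = 4.54e-04). Hs3st1, of the same enzyme family, fell (-1.83, edgeR FDR = 2.41e-07), and so did Ndst3, which sulfates the nitrogen of glucosamine (-2.60, edgeR FDR = 2.69e-06). Ndst3 was scarce, with an average log2 CPM of 0.15, and its nearest genes had a median of -0.43. Among 22 co-receptors and modulators, the adhesion molecules Ncam1 (-1.30, edgeR FDR = 1.93e-06) and L1cam (-1.13, edgeR FDR = 0.0315), both known to engage FGF receptors, fell. The protease inhibitor Spint1 rose (1.18, edgeR FDR = 0.0205), and the median of the list was -0.09. Of the 22 genes, 1 was thus called higher and 2 lower, where 1.54% of all genes were higher and 2.11% lower. The counts were the same at an unadjusted p under 0.05 of the edgeR test (2.54% and 3.43% of all genes). Ncam1 and L1cam are also abundant in neurons, and the part of the early neuronal markers in their values was not tested.

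Patterning genes near FGF8 sources at the isthmus and anterior neural ridge (18 of 19 listed genes measured) had a median of -0.11. At an FDR under 0.05, 1 was higher and 1 lower, where 1.54% of all genes were higher and 2.11% lower. The counts were the same at an unadjusted p under 0.05 of the edgeR test (2.54% and 3.43% of all genes). Nkx6-2, a homeobox gene of the ventral neural tube, rose (2.22, edgeR FDR = 3.14e-09), and Emx2, a homeobox gene of the dorsal forebrain, fell (-1.43, edgeR FDR = 9.34e-05). Emx2 lies on chromosome 19, whose median was -0.37, and its nearest genes had a median of -0.26. The part of the chromosome in the value of Emx2 was not tested. Of the caudal and presomitic genes that FGF and Wnt keep active, 18 of 21 were measured. At an FDR under 0.05, 0 were higher and 1 lower (1.54% and 2.11% of all genes). At an unadjusted p under 0.05 of the edgeR test, 0 were higher and 1 lower (2.54% and 3.43% of all genes). The 1 gene was Evx1 (-1.86, edgeR FDR = 4.63e-06), and the median was 0.01. The part of FGF, Wnt or the early neuronal markers in the value of Evx1 was not tested.

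The cell type label was compared with markers. Of 10 neural progenitor markers 9 were measured, at 3.21 to 7.57 log2 CPM per kb, with 1 higher (Slc1a3, 1.28), 1 lower (Fabp7, -2.91) and a median of 0.11. At the same FDR under 0.05, 1.54% of all genes were higher and 2.11% lower. With an unadjusted p under 0.05 of the edgeR test, 1 progenitor marker was higher and 1 lower (2.54% and 3.43% of all genes). Pluripotency markers (7 of 8 measured) lay between -2.07 and 2.06 log2 CPM per kb with a median log2 fold change of -0.01. The edgeR test called 0 of them, where 1.54% of all genes were higher and 2.11% lower. At an unadjusted p under 0.05 of that test, 0 were higher and 1 lower (2.54% and 3.43% of all genes). Of mesoderm and endoderm markers, 3 of 7 each were called higher, where 1.54% of all genes were, with medians of 1.15 and 0.97. The called mesoderm genes were Foxc2, Hand2 and Osr1 and the called endoderm genes Afp, Apoa1 and Ttr. In each list 2 of the 7 markers were below 0. These were Tbx6 (-0.24) and Hand1 (-0.20) for mesoderm, and Gata4 (-0.96) and Gata6 (-0.54) for endoderm. The levels of the measured markers ran from -2.49 to 3.05 (mesoderm) and from 0.34 to 3.34 (endoderm). Some FGF ligands are also made by these tissues, and the part of such cells in the values of the ligands, Fgf3 included, was not tested.

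**Figure D5:**
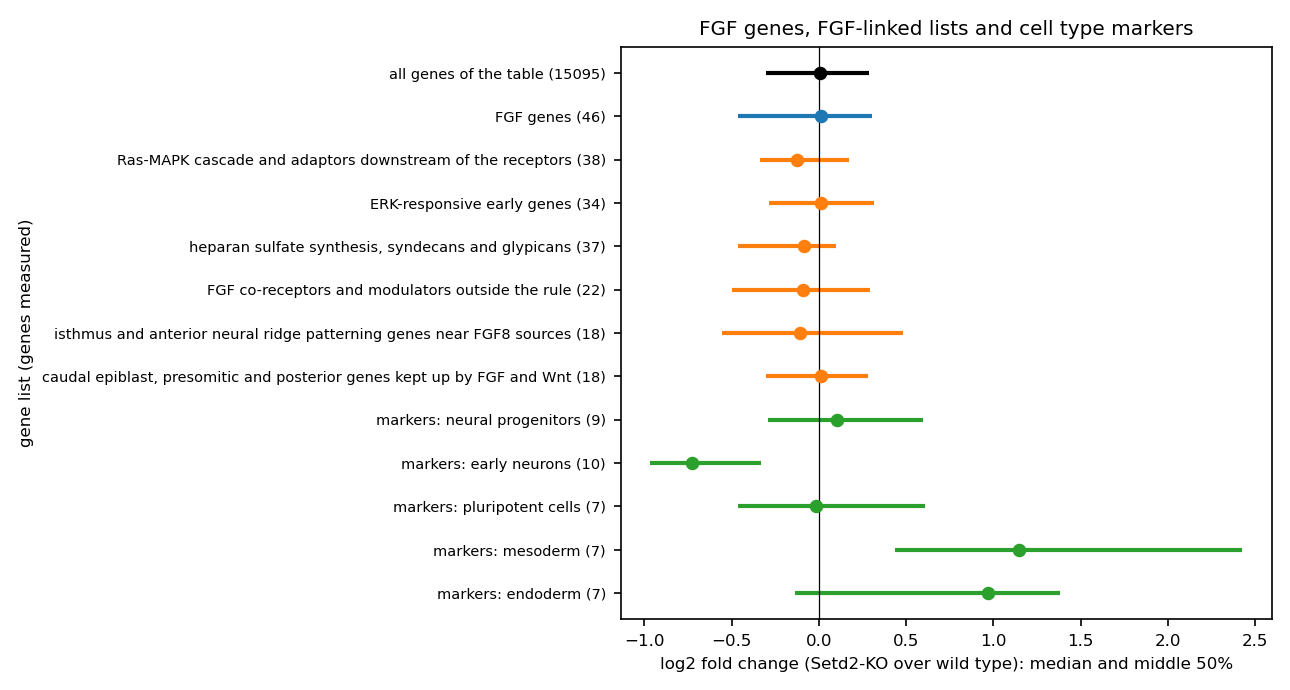
Median (point) and middle 50% (bar) of the log2 fold change (x axis) for all genes of the table, the 46 FGF genes, 6 lists of linked genes and 5 lists of cell type markers, with the number of genes measured in brackets. The FGF genes centre on 0.01 as all genes do, the early neuronal markers on -0.73 and the mesoderm markers on 1.15.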

How the data were processed

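PolyA RNA was measured in NPCs, with 3 libraries of each genotype. The authors' deposited table holds log2 fold changes, an average log2 CPM, and the p-value and FDR of edgeR's glmTreat, all from the authors' own comparison. No value per library was used, 0 per-sample columns were left unmapped, and depth is unknown. STAR, Trim Galore, edgeR and mm9 appear in the submitters' processing notes, whereas the methods name Salmon within nf-core and GRCm39, so that the build behind the table is not settled. Trimming, counting, the filter on low counts and normalization could not be repeated, and no source used here says whether counting used strand.

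Fold changes were multiplied by -1, to read as knockout over wild type, because the study's own direction lists share 523 genes with the table, of which 518 then had the same direction and 5 the opposite. The Benjamini-Hochberg adjustment over all 15095 genes gave the deposited FDR again. Genes were matched by Ensembl ID without version to GENCODE vM39 (15066 matched, 29 not), which supplied exon lengths and positions on GRCm39. Promoters came from RefSeq on GRCm38.p6.

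The members and gene lists were chosen with earlier results of these data known. Members were named with full values at an FDR under 0.05, at an absolute log2 fold change of at least 0.5, or at the highest level of a role. From each list of linked genes, called genes were named, or otherwise the 3 with the highest average log2 CPM, of which 1 is not reported here. From the marker lists the called genes were named. Phlda2 and the mesoderm and endoderm markers below 0 were named beyond this rule. Alternatives concerned the threshold, adjustment, filters, centring and length measure. Scripts used Python 3.11.15 with numpy 2.4.6, pandas 2.3.3 and matplotlib 3.10.9, and were tested on simulated data.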

Additional observations from a re-analysis of the deposited data

How the results depend on the processing

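The count of FGF genes called lower was 0 at an FDR of 0.01 and 0 after Benjamini-Yekutieli adjustment, because Dusp8 then missed the threshold. The count called higher was 1 (Fgf3) at an FDR of 0.10 and 1 (Fgf3) at an unadjusted p under 0.05. With members under an average log2 CPM of 0 left out, the secreted ligands had a median of -0.18 (-0.07 with all members). The Etv and Egr factors together then had a median log2 fold change of 0.34 (-0.13 with all members). This filter dropped Fgf1, Fgf7, Fgf8 and Fgf20 from the ligands. From the Etv and Egr factors it dropped Egr3 (-0.99) and Egr4 (-0.77), the lowest values of that group. Relative to the nearest genes the median was -0.090 for the intracellular FGFs (0.03 as deposited) and -0.069 for the antagonists (-0.17 as deposited). Of the 46 genes, 5 changed sign relative to the nearest genes (Fgf20, Fgf7, Fgf8, Frs2 and Spred1) and 4 relative to the chromosome (Dusp9, Fgf8, Fgfr2 and Frs2). Of the 25 genes named with full values, 11 moved by more than 0.1 relative to the nearest genes and 2 (Dusp5 and Fgfbp3) relative to the chromosome. The median of all FGF genes was -0.01 with Fgfr1op and Fgfr1op2 left out, an alternative chosen after seeing the data. The member with the highest level was the same in 6 of 7 roles with the canonical transcript length. The precision of scarce genes such as Egr3, Egr4 and Fgf8 is limited by depth, which is unknown. No paired analysis was possible because the table holds no values per library, and leaving out libraries was not run for the same reason.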

Other observations

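The ETS motif CCGGAAGT was found in 2 of the 43 member promoters (Fgfrl1 and Frs2; 4.65%) and in 1277 of 32851 RefSeq promoters (3.89%), on either strand. The EGR motif GCGGGGGCG was found in 2 member promoters (Fgfr3 and Fgfrl1; 4.65%) and in 955 of all promoters (2.91%). The variant GCGTGGGCG was found in 0 member promoters and in 201 of all promoters (0.612%). The log2 fold changes of these genes were 0.06 (Fgfrl1), 0.00 (Frs2) and -0.40 (Fgfr3).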
